A study of Mus musculus with 10 samples.

Results

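The 9 genes described here act on Notch receptors and ligands before or after signalling: the fringe glycosyltransferases Lfng, Mfng and Rfng, the O-fucosyltransferase Pofut1, the membrane proteases Adam10 and Adam17, the endocytic adaptor Numb, and the ubiquitin ligase components Mib1 and Fbxw7. They were chosen by name from 21938 protein-coding genes, and the question was whether RBPJ, the DNA-binding factor of the Notch pathway, was bound near them. Of 11094 RBPJ peaks, which are stretches of the genome enriched in RBPJ chromatin immunoprecipitation followed by sequencing (ChIP-seq), 10 had their centre in the regulatory domain or body of 1 of these genes.

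The study profiled untreated mouse RD1 cells, which the labels call brain pericytes, grown in pericyte medium on collagen. The 10 samples form 5 groups of 2, namely input DNA without antibody, total histone H3, H3K4me1, H3K4me3 and RBPJ. Both RBPJ samples carried the same list of 11094 peaks, position for position, and were counted as 1 list, and the 8 samples of the remaining groups were not analysed here. The list holds positions and no heights or read counts, so depth was unknown, no peak had a replicate error, and no difference was tested. The labels do not say whether the samples came from separate cultures, and the labelled cell type could not be checked against marker genes because a peak list carries no expression values.

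Notch receptors carry O-fucose, added by Pofut1 in the endoplasmic reticulum, and fringe enzymes extend that sugar in the Golgi, which changes how a receptor responds to Delta-type and Jagged-type ligands. Ligand binding and then Mib1-driven ligand endocytosis in the neighbouring cell expose the receptor to Adam10 or Adam17, and then to gamma-secretase. The freed intracellular domain joins RBPJ on DNA. Numb limits the receptor at the cell surface, and Fbxw7 marks the intracellular domain for degradation. Pericytes are the mural cells of brain capillaries, and Notch signalling from endothelium to mural cells is a known part of mural cell development. In brain pericytes, however, the study saw no signal from its Notch reporter mice at early postnatal stages. It proposes that RBPJ acts there independently of Notch.

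RBPJ peaks lay at 7 of the 9 genes, namely Lfng, Pofut1, Adam10, Adam17, Numb, Mib1 and Fbxw7, and at neither Mfng nor Rfng. A gene was counted when a peak centre fell in its body or in its regulatory domain, which reached 5 kb upstream and 1 kb downstream of its 5′ end and on to the domains of the next genes, for at most 1 Mb. The same rule gave a peak to 46.7% of all protein-coding genes, against 77.8% of the 9 genes (exact 95% binomial interval 40.0 to 97.2%). At 6 genes the peak centre was within 1 kb of the gene's own 5′ end, a share of 66.7% (29.9 to 92.5%) against 24.9% of all genes. The all-gene shares include chromosomes 4, 7 and X, where few peaks were listed and none of the 9 genes lies. Over the 8897 genes on the 8 chromosomes that hold the 9 genes they were 55.4% and 30.5%, and both lie within the intervals of the 9 genes. Numb was the exception, with its peak far from its 5′ end. All intervals cover counting error only, and because the genes were chosen by name they are descriptions.

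**Figure D1:**
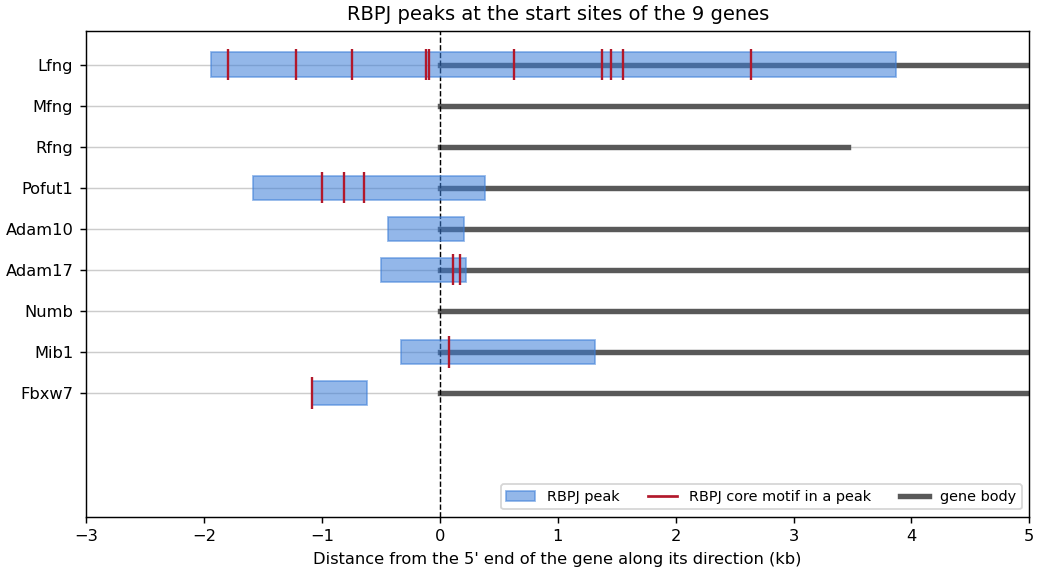
RBPJ peaks (blue) within a few kb of the 5′ end of each of the 9 genes, drawn along the direction of the gene in kb, with RBPJ core motifs inside peaks (red) and gene bodies (grey). The peak at Lfng spans 5805 bp and holds 10 core motifs, 5 other genes have narrower peaks, and Mfng, Rfng and Numb have none in this window.

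The 9 genes had from 0 to 3 peaks each. Mib1 had 3, Adam10 had 2, and Lfng, Pofut1, Adam17, Numb and Fbxw7 had 1 each. Among all protein-coding genes, 53.3% had no peak, 28.3% had 1 and 4.05% had 4 or more, a number that none of the 9 genes reached. Their domains and bodies covered 2.04 Mb together and, at the peak density of their chromosomes, would hold 8.51 peaks, against the 10 counted. The domain of Fbxw7 was 902 kb long and held 1 peak where the density of chromosome 3 gives 3.42. Without Fbxw7 the values were 9 peaks against 5.09. No other gene was left out in turn, and Mib1 lay the other way, with 3 peaks against 1.29. Of the 10 peaks, 5 lay in the domain of another gene as well, and that of Fbxw7 lay in the body of another gene, Gm37240. A gene of the list was the nearest protein-coding gene to 6 of the peaks.

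**Figure D2:**
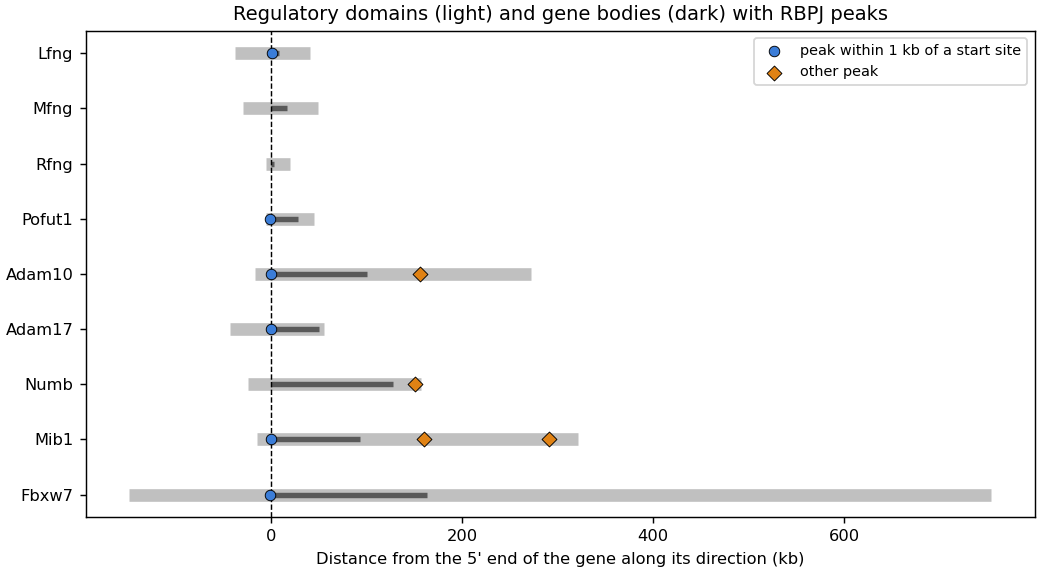
Regulatory domains (light bars), gene bodies (dark bars) and RBPJ peak centres of the 9 genes, in kb from each 5′ end. Domains run from 25.4 kb at Rfng to 902 kb at Fbxw7, and the peaks far from a 5′ end belong to Adam10, Numb and Mib1.

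The following stretches hold the RBPJ core motif TGGGAA in peaks of Lfng, Pofut1, Adam10, Adam17, Numb and Fbxw7, and they are shown because the motif content of these peaks is compared further on. They are from the GRCm38 reference, read 5′ to 3′ along the direction of the gene, with TGGGAA or its reverse complement TTCCCA in capitals. At Lfng (plus strand) they are chr5:140606552-140606607 and chr5:140607182-140607262, both upstream of the gene, and chr5:140608644-140608892 in its intron, where the variant TGAGAA is also in capitals. In the upstream stretch of Lfng the capitals extend to CGTGGGAA. At Pofut1 (plus strand) they are chr2:153240514-153240567 and chr2:153240866-153240919, and at the distal peak of Adam10 chr9:70834665-70834732 (plus strand). At Adam17 (minus strand) they are chr12:21373501-21373530 and chr12:21373441-21373470, both in its untranslated region just downstream of the transcription start site (TSS). The site of Numb (minus strand) is in chr12:83770988-83771041, in an intron of Papln, and that of Fbxw7 (plus strand) in chr3:84814163-84814216.
Lfng upstream CGTGGGAA: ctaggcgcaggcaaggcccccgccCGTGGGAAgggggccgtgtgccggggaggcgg
Lfng promoter pair: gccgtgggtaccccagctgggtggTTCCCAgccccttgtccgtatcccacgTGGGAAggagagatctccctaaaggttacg
Lfng intron sites: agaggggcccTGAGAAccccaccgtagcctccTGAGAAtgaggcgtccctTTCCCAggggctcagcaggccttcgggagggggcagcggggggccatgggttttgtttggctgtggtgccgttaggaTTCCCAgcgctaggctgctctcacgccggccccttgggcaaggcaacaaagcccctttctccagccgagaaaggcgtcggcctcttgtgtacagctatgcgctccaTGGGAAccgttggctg
Pofut1 first site: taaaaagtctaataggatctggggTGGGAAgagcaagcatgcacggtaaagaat
Pofut1 central site: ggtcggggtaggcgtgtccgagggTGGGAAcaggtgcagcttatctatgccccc
Adam10 distal pair: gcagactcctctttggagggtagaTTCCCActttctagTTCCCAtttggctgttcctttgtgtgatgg
Adam17 site nearest the TSS: gcagggccgtgcTGGGAAgatcacctccgc
Adam17 second site: ttcggagaaggtTTCCCAgagaggtggtgg
Numb site: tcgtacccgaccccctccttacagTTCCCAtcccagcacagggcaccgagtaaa
Fbxw7 site: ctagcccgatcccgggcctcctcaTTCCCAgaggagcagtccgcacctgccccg

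A pair of stretches shows where motif and peak parted. The promoter of Adam10, chr9:70678876-70678965 on the plus strand, was in a peak that held no TGGGAA, and is shown with the E-box CACGTG in capitals. The stretch upstream of Mfng, chr15:78773542-78773781 on the minus strand, held 3 TGGGAA in either direction, in capitals, and no peak.
Adam10 promoter E-box: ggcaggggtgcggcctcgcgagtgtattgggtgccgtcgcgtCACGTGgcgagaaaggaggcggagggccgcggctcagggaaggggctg
Mfng upstream sites: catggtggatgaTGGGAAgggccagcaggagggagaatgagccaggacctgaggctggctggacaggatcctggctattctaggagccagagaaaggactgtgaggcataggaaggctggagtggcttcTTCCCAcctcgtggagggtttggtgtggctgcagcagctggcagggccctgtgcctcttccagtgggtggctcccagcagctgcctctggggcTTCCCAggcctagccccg

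Lfng, which encodes lunatic fringe, had the widest peak of the 9 genes. Lfng lies on the plus strand at chr5:140607320-140615545 (GRCm38). Its peak at chr5:140605383-140611187 was 5805 bp wide, from 1937 bp upstream to 3867 bp downstream of the 5′ end, and covered 47.0% of the gene body. Only 14 of the 5489 promoter-proximal peaks, those with the centre within 1 kb of an annotated start of a protein-coding transcript, were wider. That class goes by the centre, so a wide peak that covers a start can fall outside it. Over all 11094 peaks, the Lfng peak was wider than 98.8%. The domain of Lfng was 78.0 kb long and no other domain held the peak, the nearest other protein-coding 5′ end being that of Ttyh3 at 41711 bp. The peak also overlapped the non-coding RNA gene Gm43703. According to its methods, the study merged peaks within 2 kb before it kept those with overlapping calls. The list still holds closer neighbours, as at Hes7. A single wide region and several narrow ones cannot be told apart here.

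The Lfng peak held 10 TGGGAA motifs on either strand, or 1.72 per kb. Of the 126 peaks of similar width (4644 to 7256 bp), the median held 6 and 15.9% held at least as many. The motifs were spread over the peak, 5 upstream of the 5′ end and 5 downstream, and none lay in the central 200 bp, the nearest being 332 bp from the centre. The 10 motifs were 11.5% of the 87 in the domain of Lfng.

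Lfng carried the only peak of the 10 with the extended motif CGTGGGAA, which it held at 744 and 89 bp upstream of the 5′ end. A count of 2 or more was found in 0.343% of all peaks and in 3.12% of the 192 peaks of at least 5 kb. The motif nearer to the gene overlapped an E-box CACGTG that starts 91 bp upstream, and a TGGGAA on the opposite strand began 114 bp upstream, so that a pair pointed away from each other with 21 bp between them. Neighbouring TGGGAA at most 30 bp apart occurred in 5.92% of all peaks, and in this orientation in 1.26%. In the intron, TGAGAA at 1356 bp and the reverse complement of TGGGAA at 1374 bp pointed towards each other with 12 bp between them. Head-to-head pairs of TGGGAA or TGAGAA with gaps of 11 to 21 bp were present in 2.65% of all peaks and in 9.52% of peaks of similar width. These matches describe letters in the reference sequence and were not tested as binding sites.

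Mfng, which encodes manic fringe, had no peak, and its promoter was rich in the motif. Mfng lies on the minus strand at chr15:78755882-78773475. Within 500 bp to either side of its 5′ end it held 4 TGGGAA, at 84, 177, 294 and 442 bp upstream, and its 78.3 kb domain held 94. At least 4 motifs in this window were found at 2.11% of all promoters, of which 18.4% had a peak within 1 kb, against 24.9% of all genes. The Mfng promoter was also the only 1 of the 9 that was not CpG-rich, with 60.0% GC and an observed over expected CpG ratio of 0.28. Of promoters that were not CpG-rich and held at least 4 motifs, 6.02% had a peak within 1 kb. Of all promoters that were not CpG-rich, 7.44% had one. The peak nearest to the 5′ end of Mfng, at chr15:78832921-78833193, was 59582 bp upstream, in the domains of Card10 and Cdc42ep1.

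Rfng, which encodes radical fringe, had neither a peak nor a promoter motif. Rfng lies on the minus strand at chr11:120780746-120784207, and its 5′ end is 65 bp from that of the divergent gene Gps1. Its promoter was the most GC-rich of the 9, with 74.2% GC and a CpG ratio of 0.97. Its domain was the shortest, at 25.4 kb, and the density of chromosome 11 gives 0.189 peaks for that length. The nearest peak, at chr11:120796013-120796571, was 12085 bp upstream and 111 bp from the 5′ end of Dus1l. The 3 fringe genes thus ranged from a peak over the start of Lfng to no peak at Mfng and Rfng.

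Pofut1, the enzyme that adds the O-fucose on which fringe enzymes act, had 1 peak at a start it shares with another gene. Pofut1 lies on the plus strand at chr2:153241533-153270247, and its 5′ end is 107 bp from that of the divergent gene Plagl2, a zinc finger factor. The peak at chr2:153239948-153241920 was 1973 bp wide, wider than 84.0% of all peaks. Its centre was 599 bp upstream of Pofut1 and 492 bp from the 5′ end of Plagl2, in an intron of Plagl2, so the peak lay in the domains of both genes and cannot be assigned to either. It held 3 TGGGAA, all in the same direction, at 995, 811 and 643 bp upstream of Pofut1, and the first and the last were GTGGGAA. The last lay in the central 200 bp of the peak. Of the 1376 peaks of similar width, 40.0% held at least 3.

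The proteases Adam10 and Adam17, which cut the receptor outside the membrane, both had a peak of about the median width over the 5′ end. Adam10 lies on the plus strand at chr9:70678997-70780229, and its promoter peak at chr9:70678559-70679199 was 641 bp wide with the centre 118 bp upstream. This peak held no TGGGAA, as did 45.0% of the 2076 peaks of similar width, and it held 1 E-box CACGTG, 79 bp upstream. Adam17 lies on the minus strand at chr12:21323509-21373632, and its peak at chr12:21373413-21374133 was 721 bp wide with the centre 141 bp upstream. The centre was 8 bp from the start of Gm49586, a divergent non-coding RNA gene. The Adam17 peak held 2 TGGGAA, at 114 and 174 bp downstream of the 5′ end, facing each other with 54 bp between them, and 23.3% of the 1954 peaks of similar width held at least 2. The 2 protease promoters were thus alike in the position and width of the peak and differed in the core motif.

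Adam10 had a distal peak as well, at chr9:70834453-70835192, 740 bp wide and 155825 bp downstream of its 5′ end. It lay in an intron of Lipc, which encodes hepatic lipase, in the domains of both genes, and was nearer to the 5′ end of Lipc, at 117404 bp. It held 3 TGGGAA, or 4.05 per kb, the highest density of the 10 peaks, and 7.23% of the 1949 peaks of similar width held at least 3. A pair of them pointed the same way with 8 bp between them, and none was in the central 200 bp. It also held 1 TGANTCA, the motif of AP-1 factors, and 1 TGTGGT, the core motif of RUNX factors.

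Numb, the adaptor that draws Notch receptors into endocytosis, had no peak near any of its starts. Numb lies on the minus strand at chr12:83794034-83921934. The only peak in its domain, at chr12:83770780-83771184, was 405 bp wide and 150952 bp downstream of its 5′ end. It lay in an intron of Papln, an extracellular matrix gene whose 5′ end was 7348 bp away, and in the domains of both genes. Its single TGGGAA was 30 bp from the centre. The peak nearest to the 5′ end of Numb, at chr12:83950478-83951098, was 28854 bp upstream, outside its domain and 180 bp from the 5′ end of Riox1. The Numb promoter was CpG-rich, with 62.2% GC, and held 1 TGGGAA that was not in a peak.

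Fbxw7, the substrate receptor of the ligase that degrades the Notch intracellular domain, had 1 peak upstream of its outermost start. Fbxw7 lies on the plus strand at chr3:84815268-84979198. The peak at chr3:84814182-84814647 was 466 bp wide, 1086 to 621 bp upstream of the 5′ end, in an intron of Gm37240, an overlapping protein-coding gene annotated on the minus strand, so the peak also counts for that gene under the rule used here. It was the only peak of the 6 proximal ones that did not cover the 5′ end. Its single TGGGAA lay at 1081 bp upstream, 5 bp inside the edge, and overlapped a CATTCC, the motif of TEAD factors. Other starts of Fbxw7, at 48877, 110212 and 136878 bp downstream, had no peak within 1 kb. Among the 1263 genes whose domain and body spanned at least 900 kb, 65.6% had 0 or 1 peak, as Fbxw7 had.

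Mib1, the ligase that ubiquitinates Notch ligands for endocytosis, had the most peaks, 1 at its start and 2 far downstream. Mib1 lies on the plus strand of chromosome 18, from 10725548 to 10818704. The first peak was 1643 bp wide, from 330 bp upstream to 1312 bp downstream of the 5′ end, and held 1 TGGGAA, fewer than the median of 2 in peaks of similar width. The other peaks were 560 and 294 bp wide and lay 160526 and 290603 bp downstream of the 5′ end, both in the domains of Mib1 and Gata6, which encodes a zinc finger transcription factor. The last was 35913 bp from the 5′ end of Gata6 and nearer to it than to Mib1. It held no TGGGAA but 3 TGANTCA, a count reached by 0.620% of the 4031 peaks up to 500 bp wide.

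**Figure D3:**
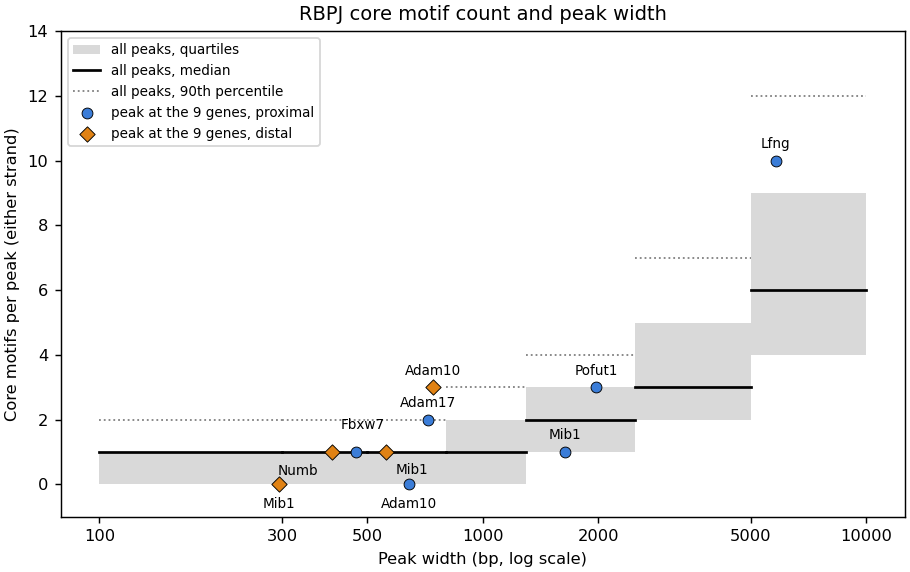
Number of TGGGAA motifs per peak (either strand) against peak width in bp on a log scale, for the 10 peaks of the 9 genes. The whole list is drawn by width class, up to a width of 10000 bp. The Lfng peak lies at 5805 bp with 10 motifs, and the other 9 peaks hold 0 to 3.

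Over the 10 peaks, 6 were within 1 kb of a protein-coding transcript start, or 60.0% (26.2 to 87.8%), against 49.5% of all peaks. Within 500 bp the order turned, with 40.0% against 42.8%. Their median width was 681 bp (quartiles 490 and 1417 bp), against 690 bp for all peaks, and 1182 bp when the gene body and basal domain alone were used, which leaves the 6 proximal peaks. The 6 proximal peaks had a median of 1182 bp against 829 bp for all proximal peaks, and the 4 distal ones 482.5 bp against 523 bp. The median GC content was 64.6% in the proximal and 49.1% in the distal peaks, against 63.4% and 49.6% in all peaks of these classes. Lfng apart, the peaks lay between the 15.1 and the 84.0 percentile of width over the list.

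The peaks of Pofut1 and Numb were 2 of 10 with TGGGAA in their central 200 bp, or 20.0% (2.52 to 55.6%), against 25.8% of all peaks. In the central 100 bp the order turned, with 20.0% against 15.4%, and GTGGGAA was in the central 200 bp of 1 of the 10 against 9.30%. TGGGAA was anywhere in 8 of the 10 peaks, or 80.0% (44.4 to 97.5%), against 64.9% of all peaks. The peaks without it were the promoter peak of Adam10 and the last peak of Mib1. The 10 peaks held 22 motifs in 13.2 kb, or 1.66 per kb, and 1.61 per kb without Lfng, against 1.25 per kb in all peaks. In windows of the same size 5 kb to either side of the 10 peaks, 8 of 20 held TGGGAA, or 40.0% (19.1 to 63.9%), against 18.2% of such windows around all peaks. The value for all peaks, 18.2%, lies just below that interval, and the central and flanking shares were not tested against each other. The centre is the midpoint of a listed peak and not a summit, which matters most for the wide Lfng peak.

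Other motifs were searched in whole peaks, on both strands. GTGGGAA, which contains TGGGAA, was in 3 of the 10 peaks against 29.3% of all peaks, and CGTGGGAA, which contains both, in 1 against 7.29%. TGAGAA was in 4 against 45.3%, and TGANTCA in 2 against 30.7%. CACGTG was in 3 against 17.8%, CATTCC in 6 against 39.4%, and TGTGGT in 5 against 40.0%. TGANTCA was in 2 of the 4 distal peaks, those of Adam10 and Mib1, and in none of the 6 proximal ones, against 44.4% of all distal and 16.6% of all proximal peaks.

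All of the 9 genes except Mfng had CpG-rich promoters. CpG-rich promoters, with at least 50% GC and an observed over expected CpG ratio of at least 0.6 within 500 bp to either side of the 5′ end, were found at 44.4% of all genes and at 48.3% of genes on the 8 chromosomes of the 9 genes. A peak within 1 kb was present at 46.7% of all CpG-rich promoters and at 7.44% of the others, and at 53.1% of CpG-rich promoters on the 8 chromosomes of the 9 genes. Among the 8 CpG-rich genes the count was 6, or 75.0% (34.9 to 96.8%), with Rfng and Numb as the exceptions. TGGGAA was in the 1 kb promoter window of 5 of the 9 genes, Lfng, Mfng, Adam17, Numb and Mib1, against 60.3% of all genes. The share of genes with a peak rose from 1.16% in the lowest to 57.4% in the highest bin of CpG ratio. The part of promoter composition in the counts of the 9 genes was not tested.

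**Figure D4:**
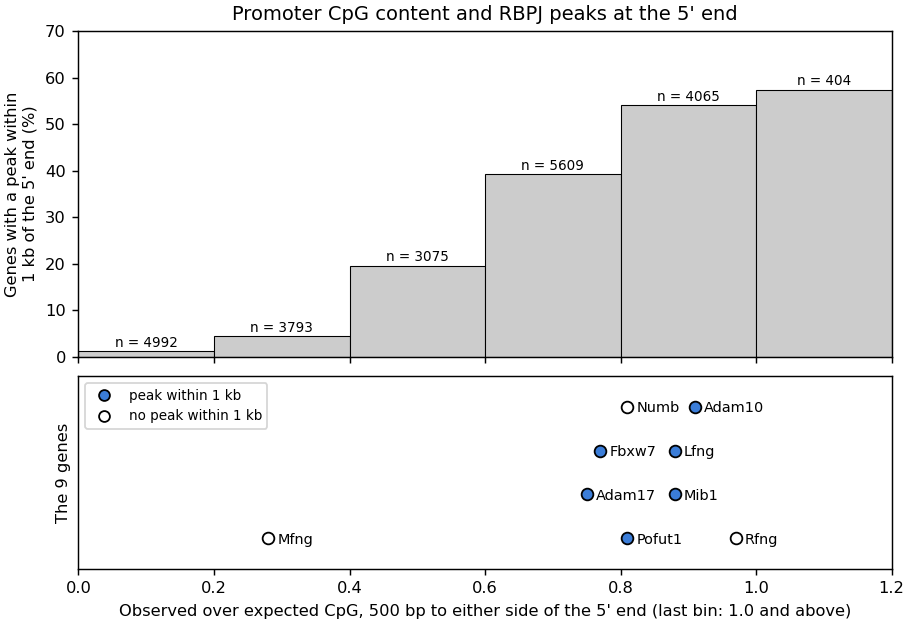
Upper plot, percent of all protein-coding genes with an RBPJ peak within 1 kb of the 5′ end, by observed over expected CpG ratio of the promoter. Lower plot, the ratio of each of the 9 genes, filled where a peak was present: Mfng lies lowest at 0.28 and Rfng highest at 0.97, both without a peak.

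The other genes of Notch processing were taken from a list of 54 drawn up from general knowledge but with earlier results of these data known, so their counts are no independent support. The list had 4 roles, and 40 of them (74.1%) had a peak, 27 (50.0%) within 1 kb of their own 5′ end. Over all genes these shares were 46.7% and 24.9%. CpG-rich promoters, however, were found at 39 of the 54 genes (72.2%) against 44.4% of all genes, and of these 39 genes 22 had a peak at the 5′ end, where 46.7% of all CpG-rich promoters had one. By role, CpG-rich promoters were found at 80.0% of the glycosylation, 63.6% of the cleavage, 88.9% of the ligand endocytosis and 66.7% of the receptor genes. All 10 glycosylation genes had a peak, 9 of them at the 5′ end, and Pofut2, which fucosylates thrombospondin repeats, held the most TGGGAA, 8 in 3 peaks. Of 11 cleavage genes 9 had a peak, without the gamma-secretase subunit Psenen and the protease Bace1, and the metalloprotease Adam19 held the most motifs, 7. Of 9 genes of ligand endocytosis 7 had a peak, without Mib2, a relative of Mib1, and the adaptor Epn1, and the ligase Neurl1a held 15 motifs in 8 peaks. Of 24 genes of receptor trafficking and turnover 14 had a peak, and the Numb-binding ligase Lnx1 held 19 motifs in 6 peaks. Those without were Numbl, the close relative of Numb, the kinase Aak1, the ligases Itch, Dtx1 and Wwp2, the clathrin adaptor subunits Ap2a1 and Ap2a2, and Skp1a, Ccnc and Snw1.

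Chromosome differed between genes with and without a peak in that list. The peak list held 11.9 peaks per 100 genes on chromosome 4, 7.22 on chromosome 7 and 15.2 on chromosome X, against 54.9 to 76.3 on the chromosomes of the 9 genes. None of the 9 genes lies on chromosome 4, 7 or X, and 8 of the 54 do, of which 7 had no peak (Psenen, Mib2, Epn1, Numbl, Ap2a1, Ap2a2 and Ccnc). For these 7 genes, a lack of RBPJ and the low density of their chromosomes cannot be told apart.

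**Figure D5:**
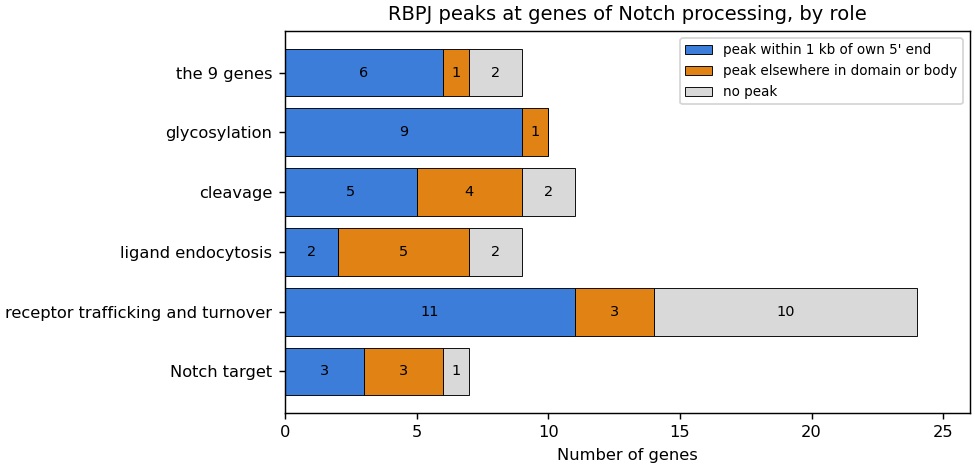
Number of genes with an RBPJ peak within 1 kb of their own 5′ end (blue), elsewhere in the domain or body (orange) or with none (grey), for the 9 genes, the 54 others by role and 7 Notch target genes. All 10 glycosylation genes have a peak, against 14 of 24 genes of receptor trafficking and turnover and 46.7% of all genes. Of the 24, 4 lie on chromosome 4, 7 or X and have no peak. The roles were not tested against each other.

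The direct Notch targets Hes1, Hes5, Hes7, Hey1, Hey2, Heyl and Nrarp encode products that repress transcription or limit Notch signalling. They had 26 peaks at 6 of 7 genes, against 10 peaks at 7 of the 9 genes. Heyl, on chromosome 4, had none, while Hes5, also on chromosome 4, had 1. TGGGAA occurred at 1.67 per kb in the target peaks and at 1.66 per kb in those of the 9 genes, where the Lfng peak supplied 10 of the 22 motifs. CGTGGGAA, set beside these genes after its values were seen, was in 11 of the 26 target peaks, or 42.3%, and in 1 of the 10 here, the Lfng peak, with an interval of 0.253 to 44.5% that includes the target share. The 54 other genes had it in 5 of 74 peaks, or 6.76%. Peaks with 2 CGTGGGAA were found at Hes1, Hey1, Hey2 and Nrarp, as at Lfng, and the Hes1 peak over its 5′ end was also wide, at 7702 bp with 9 TGGGAA. These shares were not tested against each other, since peaks of 1 gene are not replicates.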

How the data were processed

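RBPJ ChIP-seq peaks were those the authors deposited, as chromosome, start and end positions on GRCm38, with no score. According to the study's methods, reads were aligned with Bowtie and duplicates removed. Peaks were called with MACS2 and PeakRanger in each replicate, joined when within 2 kb, kept with at least 3 overlapping calls across methods and replicates, and cleared of blacklisted regions. Both deposited lists were identical and were counted as 1. Input and histone samples were not analysed here.

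Peaks were assigned by their centre to GENCODE M21 gene bodies and to domains of 5 kb upstream and 1 kb downstream extended by at most 1 Mb. Motifs were searched as exact letters on both strands of the GRCm38 reference, with pysam 0.24.0 in Python 3.11.15. Peaks of 0.8 to 1.25 times a peak's width were of similar width. Intervals are exact Clopper-Pearson at 95%. Scripts were tested on simulated data. Alternatives changed the domain, the position rule, the width minimum, the distance limit, the window and the motif. All 9 genes were named, with, per role of the list of 54, genes without a peak and the gene with most motifs, and neighbours nearer to a peak; the extended motif at target genes was chosen after its values were seen. The genes and lists were chosen with earlier results of these data known.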

Additional observations from a re-analysis of the deposited data

How the results depend on the processing

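The number of peaks at the 9 genes fell from 10 to 6 with the basal domain and gene body alone, and likewise to 6 with extension of at most 100 kb, because the distal peaks of Adam10, Numb and Mib1 lie farther away. The share of peaks with TGGGAA moved from 20.0% in the central 200 bp to 80.0% in the whole peak. The median width rose from 681 to 1182 bp with the basal domain and gene body, against 690 bp for all peaks. Of the 9 genes, 6 had a peak with the basal domain, 6 with extension of at most 100 kb and 5 with peaks of at least 500 bp, where the shares of all genes were 35.0%, 43.3% and 34.9%. Of the 54 genes the counts were 33, 39 and 39. The share near a start fell below that of all peaks within 500 bp (40.0% against 42.8%), and the motif share rose above it in the central 100 bp (20.0% against 15.4%). Comparing within the chromosomes of the 9 genes, an alternative chosen after seeing the data, kept the 7 genes and raised the all-gene share from 46.7% to 55.4%. Leaving out either RBPJ replicate gave the same values (7 genes, 10 peaks, 40 of the 54, 60.0% proximal, median width 681 bp, 20.0% with a central motif), since the lists are identical, and says nothing about reproducibility. No paired analysis was possible because no result came from a test. Without heights or depth, a missing peak means only that none was listed.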
